A study of Mus musculus with 12 samples.

Results

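The genes described here are the members of the ATP-binding cassette (ABC) transporter family in the bone marrow progenitor cells of mice with a truncated Asxl1 transgene, a deleted Kdm6b allele, or both. They were chosen by symbol alone: every row of the count matrix named Abc, a subfamily letter from a to g, a number and, for some, a closing a or b. The rule found 50 of the 55291 rows, and 35 of the 50 were among the 15825 genes with enough reads to be tested. By subfamily the members were 16 Abca, 10 Abcb, 10 Abcc, 4 Abcd, 1 Abce, 3 Abcf and 6 Abcg genes. Of these, 8 Abca, 8 Abcb, 7 Abcc, 4 Abcd, 1 Abce, 3 Abcf and 4 Abcg genes were tested. The transporters of antigenic peptides Tap1 and Tap2 and the chloride channel Cftr belong to the family under other symbols, and are given apart from the counts of members.

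RNA-seq was performed on Lin-cKit+ (LK) bone marrow cells, a population enriched for hematopoietic stem and progenitor cells (HSPCs), from 12 C57BL/6 mice aged 12 months, with 3 mice of each of 4 genotypes and 1 library per mouse. The genotypes were WT, Kdm6bΔ/+ (1 allele of the histone H3K27 demethylase gene Kdm6b deleted), Asxl1Y588XTg (a transgene for a truncated form of the chromatin regulator Asxl1) and Asxl1Y588XTg Kdm6bΔ/+ (both). The Kdm6b allele was deleted with Mx1Cre, an interferon-inducible recombinase turned on by pI:pC. The question was what the truncated Asxl1 does to transcripts of LK cells and how far the loss of 1 Kdm6b allele alters that. Cells were selected on beads. The promoter of the transgene was not given in the sources used here, nor, for the mice used for RNA-seq, whether WT and Asxl1Y588XTg carried Mx1Cre or received pI:pC. The libraries held 14451522 to 23482563 counted reads (median 17125384.5), and the family took 0.256% to 0.287% of them.

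The labels were checked before the family was read. Kdm6b stood at 2142, 2372 and 1869 normalized read counts in WT, 1622, 1529 and 1346 in Kdm6bΔ/+, 2270, 2303 and 2187 in Asxl1Y588XTg and 1649, 1873 and 1909 in Asxl1Y588XTg Kdm6bΔ/+. Both genotypes with the deletion were thus lower on average than their counterparts, although the highest double mutant libraries exceeded the lowest WT library. Asxl1 stood at 2545, 3081 and 2762 in WT, 3191, 2796 and 2883 in Kdm6bΔ/+, 2906, 3060 and 3034 in Asxl1Y588XTg and 3025, 3068 and 3244 in the double mutant. The groups with and without the transgene overlapped, so the Asxl1 count did not check the transgene label, and whether reads of the transgene were counted under this symbol was not given in the sources used here. Kit, which defines the sort, was between 5764 and 7759 in all 12 libraries. A list of 10 neutrophil lineage genes led by S100a9 took 6.63% to 8.76% of the counted reads of each library, and it includes primary granule genes such as Mpo that granulocyte-monocyte progenitors within the sort also express. Transcripts of Y-linked genes were present in 0 of 3 WT, 2 of 3 Kdm6bΔ/+, 1 of 3 Asxl1Y588XTg and 3 of 3 double mutant libraries, so genotype and sex cannot be fully told apart, and in WT against Asxl1Y588XTg Kdm6bΔ/+ not at all. A normalized read count here is a count scaled to a common library size by TMM, the trimmed mean of M-values.

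ABC transporters use the binding and hydrolysis of ATP by paired nucleotide-binding domains to move a substrate across a membrane. Abca proteins mostly handle lipids, and Abcb proteins range from the drug efflux pump P-glycoprotein to mitochondrial exporters. Abcc proteins mostly export conjugated organic anions, and most Abcd proteins bring fatty acids into peroxisomes. Abce and Abcf proteins have lost the membrane domains and act in translation, and Abcg proteins are half-transporters for sterols and xenobiotics. In bone marrow, efflux of the dye Hoechst by Abcg2, and of the dye rhodamine by P-glycoprotein (Abcb1a and Abcb1b in mice), has long been used to find hematopoietic stem cells (HSCs).

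Levels differed far more between members than between genotypes. Per kb of exon, the highest members in the mean of the 12 libraries were 2 soluble proteins of translation, Abcf2 at 761 and Abce1, which splits the ribosome after termination, at 748 normalized read counts per kb. The next was Abcf1 at 594, and the highest membrane transporters were the cyclic nucleotide and drug exporter Abcc4 at 519 and the phagocyte lipid transporter Abca7 at 518. Abcb10, a mitochondrial protein needed for heme synthesis, led the Abcb genes at 474, and the cholesterol exporter Abcg1 led the Abcg genes at 116. Summed per kb, Abcf genes held 22.4% of the family, Abca 20.2%, Abcb 16.3%, Abcd 14.8%, Abcc 11.9%, Abce 10.5% and Abcg 3.89%. The stem cell pumps were not among the abundant members: Abcg2 was 20th at 79.9, Abcb1b was at 25.9 and Abcb1a at 3.91 normalized read counts per kb. Group means of Abce1 ran from 709 to 782 and those of Abcf2 from 726 to 820 normalized read counts per kb over the 4 genotypes. Values per kb use exon lengths of GENCODE vM21, which need not be the annotation behind the counts.

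**Figure D1:**
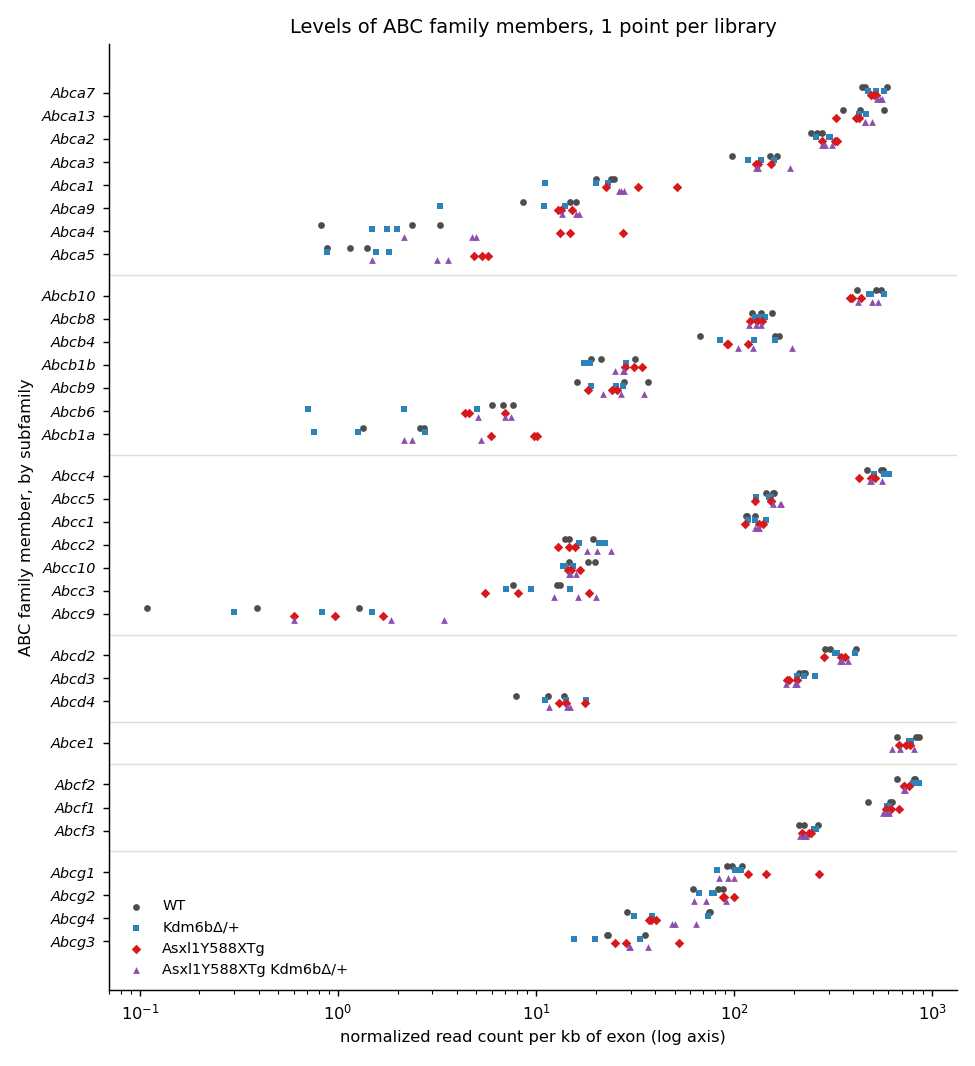
Normalized read counts per kb of exon (log axis) of 33 of the 35 ABC family members tested, grouped by subfamily, with 1 point per library coloured by genotype. The members span from 761 (Abcf2) to 1.13 (Abcc9) in the mean, and the Asxl1Y588XTg points lie clear of the WT points for Abca4, Abca5 and Abcb1a, which are low in their subfamilies.

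The other 15 members were too low to test. Abca12, Abca14, Abca15, Abca16 and Abcb5 had no read in any of the 12 libraries. Abca6, Abca8a, Abca8b, Abca17, Abcb11, Abcc6, Abcc8, Abcc12, Abcg5 and Abcg8 had reads in at least 1 library but did not reach the minimum. Among them are the bile salt export pump Abcb11, the sulfonylurea receptor Abcc8 and the intestinal and hepatic sterol exporters Abcg5 and Abcg8, which are known from other tissues.

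Genes that differed most between genotypes were Abca4, Abca5 and Abcb1a, and the reference sequence at their start sites is shown for that reason, since the 3 Asxl1Y588XTg libraries were the highest of all 12 for each of them. Each line gives the plus or minus strand of RefSeq (GRCm38.p6) from 250 bases before to 50 bases after the annotated start, and capitals mark matches on either strand to the motifs searched (TATAAA for the TATA box, CCAAT for the CCAAT box, GGGCGG for the GC box, AGATAA for GATA factors, TGTGGT for RUNX factors, TGACAG for MEIS factors and ACGTG for the hypoxia response core). These 3 libraries were also the highest of all 12 for Abcg1, for which no window was found. The windows were chr3:122044210-122044509 (plus strand) for Abca4, chr11:110337667-110337966 (minus strand) for Abca5 and chr5:8566841-8567140 (plus strand) for Abcb1a.
Abca4: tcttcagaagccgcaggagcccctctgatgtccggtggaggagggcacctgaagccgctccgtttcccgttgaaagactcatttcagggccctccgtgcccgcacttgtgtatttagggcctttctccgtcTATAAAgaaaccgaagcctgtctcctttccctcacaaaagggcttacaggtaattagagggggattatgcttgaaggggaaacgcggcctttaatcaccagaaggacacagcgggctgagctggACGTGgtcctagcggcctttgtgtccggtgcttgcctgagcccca
Abca5: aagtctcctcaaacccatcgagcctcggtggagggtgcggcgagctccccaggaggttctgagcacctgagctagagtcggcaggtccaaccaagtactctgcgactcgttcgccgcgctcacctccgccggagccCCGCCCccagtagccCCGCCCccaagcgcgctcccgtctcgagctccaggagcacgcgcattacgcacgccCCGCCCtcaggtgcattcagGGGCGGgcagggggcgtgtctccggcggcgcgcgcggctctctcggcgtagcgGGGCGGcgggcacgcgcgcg
Abcb1a: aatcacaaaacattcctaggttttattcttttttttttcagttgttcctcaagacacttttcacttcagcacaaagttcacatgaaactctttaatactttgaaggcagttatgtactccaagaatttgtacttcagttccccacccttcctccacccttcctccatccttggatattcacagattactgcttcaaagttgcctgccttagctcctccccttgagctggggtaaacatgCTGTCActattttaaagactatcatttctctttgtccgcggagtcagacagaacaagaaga
The Abca4 window held 1 TATAAA and 1 ACGTG, the Abca5 window 5 copies of GGGCGG and the Abcb1a window 1 TGACAG. No motif was shared by the 3 windows. Of all 32851 RefSeq windows of this length, 13.6% held TATAAA, 19.6% ACGTG, 35.7% GGGCGG and 19.2% TGACAG, against 37.4% for CCAAT, 11.2% for AGATAA and 16.8% for TGTGGT. Their CpG content differed as well, with 15 CpG in the Abca4 window, 40 in that of Abca5 and 2 in that of Abcb1a (observed over expected 0.63, 1.02 and 0.181). A window was found for 38 of the 50 members. At the first listed start of each, 20 of these (52.6%) had an observed over expected CpG ratio of at least 0.6. Of all windows 35.8% did, but these hold several starts for some genes, so the sets are unlike. Among members that passed the filter on low counts it was 17 of 26 (65.4%), and among those below it 3 of 12 (25%), again at the first listed start. The start matters, as the ratio of Abcg2 ran from 0.16 to 0.832 over its windows. In GENCODE vM21 the genes themselves run over chr3:122044443-122180123 (Abca4, plus strand), chr11:110269369-110337716 (Abca5, minus strand) and chr5:8660077-8748575 (Abcb1a, plus strand). The windows of Abca4 and Abca5 hold their GENCODE starts. The Abcb1a window lies far upstream of its GENCODE start and does not reach it, so its motif and CpG values describe a different start.

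Asxl1Y588XTg LK cells differed from WT in a small number of members, and mainly in those with few reads. Of the 35 members tested, 2 rose (Abca4 and Abca5) and 0 fell, where a call needed an adjusted p under 0.05 and a fold over 1.5. Over all genes tested, 1.58% were called higher and 0.0316% lower. With DESeq2 the counts were 4 and 0. With the replicate number as a block in the fit neither Abca4 nor Abca5 was called (log2 fold changes 3.07 and 2.21, adjusted p = 0.123 and 0.0818 with edgeR), and a minimum mean count of 50 left Abca4 called and Abca5 untested. The median log2 fold change was -0.00 over the 35 members and -0.01 over all genes.

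Abca4, a flippase for retinoids best known from photoreceptors, stood at 28.4, 9.83 and 39.6 normalized read counts in WT and at 158, 332 and 178 in Asxl1Y588XTg. The groups did not overlap, and the lowest Asxl1Y588XTg library was above every library of the other 3 genotypes. The log2 fold change was 3.09 (SE 0.47, 8.5-fold, adjusted p = 0.0139 with edgeR), and it lost its call without WT replicate 1 (adjusted p = 0.113) although the change itself was 3.16 there. Abca5, a lysosomal member linked to cholesterol handling, was at 10.1, 13.1 and 16.0 in WT and at 55.3, 65.4 and 60.8 in Asxl1Y588XTg. Its Asxl1Y588XTg values were close to each other, and the log2 fold change was 2.20 (SE 0.37, adjusted p = 0.0173 with edgeR). Leaving out a single library removed its call 4 times of 6 (without WT replicate 3 and without each of the Asxl1Y588XTg libraries, adjusted p up to 0.103), while the change stayed between 2.04 and 2.38. In GENCODE vM21, 0% of the 50-base stretches of either gene's transcripts occur in another gene.

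Abcb1a, the first of the 2 genes for P-glycoprotein in mice, was at 7.32, 14.2 and 15.0 normalized read counts in WT, 15.1, 6.94 and 4.15 in Kdm6bΔ/+, 55.3, 53.3 and 32.4 in Asxl1Y588XTg and 11.8, 13.0 and 28.9 in Asxl1Y588XTg Kdm6bΔ/+. All 3 Asxl1Y588XTg libraries were above all others. The difference from WT nevertheless missed the threshold (log2 fold change 1.95, SE 0.46, unadjusted p = 0.00172, adjusted p = 0.0799 with edgeR), and DESeq2 called it (adjusted p = 0.0169). The 50-base stretches of Abcb1a are shared with other genes for 22.5%, 16.3% with Abcb1b alone, so part of its count depends on how such reads were treated.

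Abcg2, the pump of the dye-effluxing side population, was at 672, 508 and 712 in WT, 648, 632 and 539 in Kdm6bΔ/+, 728, 810 and 719 in Asxl1Y588XTg and 744, 510 and 591 in the double mutant. The Asxl1Y588XTg libraries lay above the WT libraries, but the nearest were 719 and 712. The log2 fold change was 0.25 (SE 0.13, unadjusted p = 0.0881, adjusted p = 0.662 with edgeR), and in the other comparisons it was -0.27 for the double mutant against Asxl1Y588XTg, -0.06 for Kdm6bΔ/+ against WT, 0.03 for the double mutant against Kdm6bΔ/+ and -0.02 for the double mutant against WT. The 95% interval for Asxl1Y588XTg against WT ran from -0.05 to 0.55, inside the 1.5-fold threshold on either side. With 1 library left out this value ran from 0.12 to 0.35, and that of the double mutant against Asxl1Y588XTg from -0.43 to -0.16. Abcb1b, the second P-glycoprotein gene, was at 169, 253 and 152 in WT, 150, 139 and 227 in Kdm6bΔ/+, 273, 250 and 226 in Asxl1Y588XTg and 220, 201 and 223 in the double mutant. WT replicate 2 was as high as the Asxl1Y588XTg libraries, and the log2 fold change against WT was 0.38 (SE 0.21, adjusted p = 0.675 with edgeR). Abcb1b was thus the more abundant of the pair in every library, and 12.8% of its 50-base stretches are shared.

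**Figure D2:**
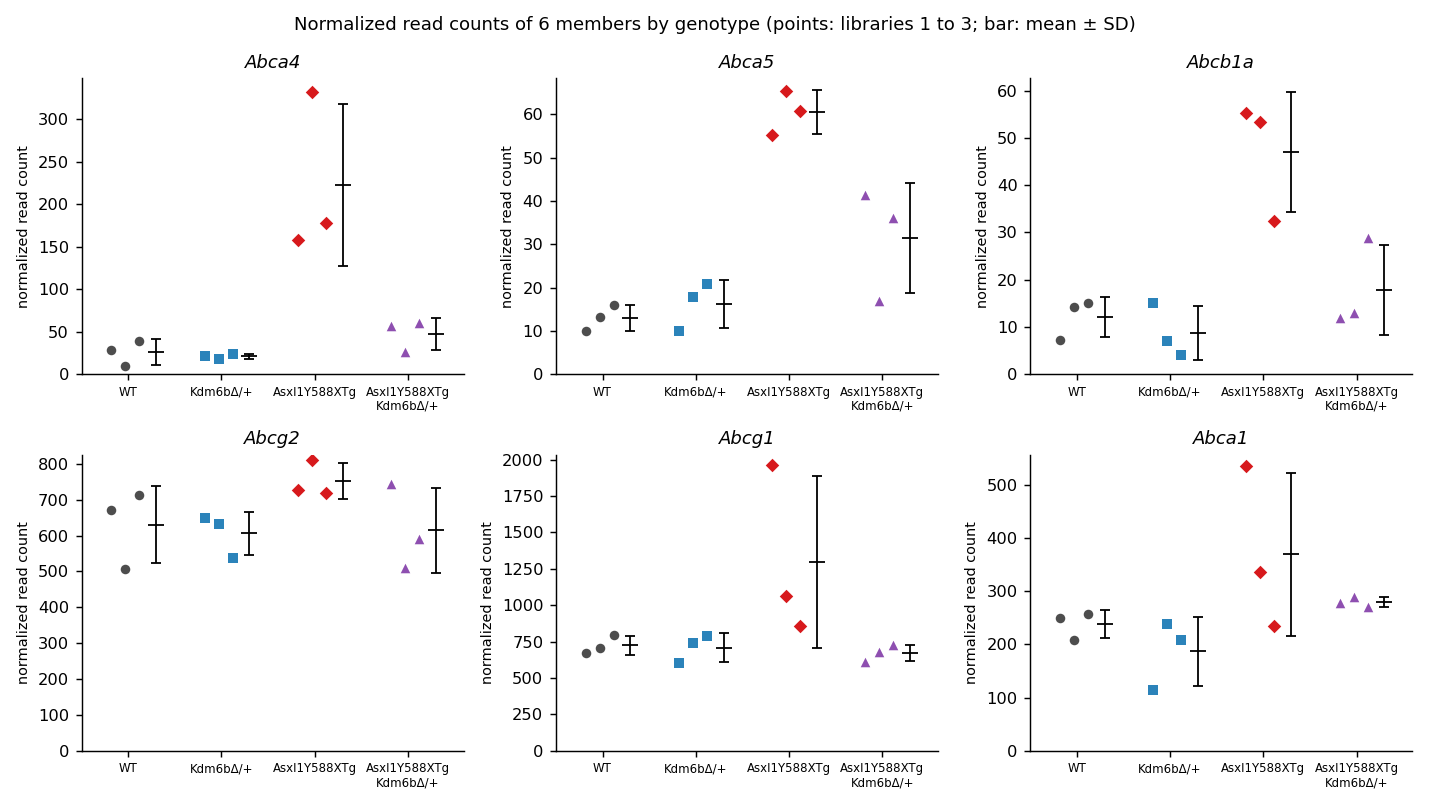
Normalized read counts of Abca4, Abca5, Abcb1a, Abcg2, Abcg1 and Abca1 by genotype, with 1 point per library and a bar for mean ± SD (n = 3). The Asxl1Y588XTg libraries are the 3 highest for Abca4, Abca5 and Abcb1a, lie between 719 and 810 for Abcg2, and for Abcg1 and Abca1 hold 1 library far above the rest.

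The sterol exporters Abcg1 and Abca1, both targets of the liver X receptors, were high in 1 Asxl1Y588XTg library. Abcg1 stood at 671, 708 and 796 in WT, 601, 739 and 787 in Kdm6bΔ/+, 1966, 1063 and 858 in Asxl1Y588XTg and 611, 678 and 725 in Asxl1Y588XTg Kdm6bΔ/+. The 3 Asxl1Y588XTg libraries lay above the other 9, with replicate 1 well apart. Against WT the log2 fold change was 0.84 (SE 0.30, adjusted p = 0.428 with edgeR) and 0.41 without that library (adjusted p = 0.369). With all libraries, DESeq2 called Abcg1 higher in this comparison. Abca1, named here after its values were seen, was at 536, 337 and 235 in Asxl1Y588XTg against 249, 208 and 257 in WT, so that 1 of the Asxl1Y588XTg libraries lay within the WT range (log2 fold change 0.63, SE 0.27, adjusted p = 0.496 with edgeR, and 0.27 without replicate 1). In the same library Pltp, a phospholipid transfer protein, was at 146 normalized read counts and at most 22.7 in the other 11, Apoe at 2837 and at 711 to 1822 in the others, and the complement genes of macrophages C1qa, C1qb and C1qc at 623, 841 and 810, when no other library exceeded 390 for any of them. Some markers of other mature cells were also highest in this library. They included the NK cell genes Ncr1 at 305 (222 in the next library) and Klrb1c at 177 (91.8). The B cell gene Ms4a1 at 147 (54.6) and the neutrophil gene Retnlg at 7527 (5861) were among them too. Others went the other way, with the plasma cell gene Jchain lowest in this library at 598 (1653 to 6721 in the other 11). Elane, on the same neutrophil list as Retnlg, was also lowest there, at 42933. Of the summed marker lists, that of 10 monocyte and macrophage genes led by Ly6c2 was highest in this library too (19530, against 14619 to 18931 in the others). Those of B cells (2127, with 2492 in double mutant replicate 3), T and NK cells (4142, with 4754 in Kdm6bΔ/+ replicate 3) and neutrophils were not. That of 5 plasma cell genes was lowest in this library (4712). By the study's methods, cells with lineage markers were depleted before the selection for cKit. The part of these mature cell transcripts in the Abcg1 and Abca1 values was not tested.

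By subfamily, 7 of the 8 Abca members tested had a positive log2 fold change in Asxl1Y588XTg against WT (median 0.16, range -0.21 to 3.09). In contrast 2 of 8 Abcb members were positive (median -0.21), 2 of 7 Abcc (median -0.09), 2 of 4 Abcd (median 0.01), 0 of 1 Abce (-0.10), 1 of 3 Abcf (median -0.00) and 3 of 4 Abcg (median 0.31), where 47.8% of all genes tested were positive. At an unadjusted p under 0.05, 6 members were higher (Abca1, Abca2, Abca4, Abca5, Abcb1a and Abcg1) and 2 lower (Abcb10 and Abcd3), against 7.3% and 2.05% of all genes. The libraries did not overlap for 5 members above WT (Abca4, Abca5, Abcb1a, Abcg1 and Abcg2) and for 1 below (Abcd3, a peroxisomal half-transporter for branched and long chain substrates), against 10.5% and 5.21% of all genes. Abcd3 was at 1409, 1508 and 1472 in WT and 1225, 1371 and 1246 in Asxl1Y588XTg (log2 fold change -0.19, SE 0.08, adjusted p = 0.476 with edgeR).

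**Figure D3:**
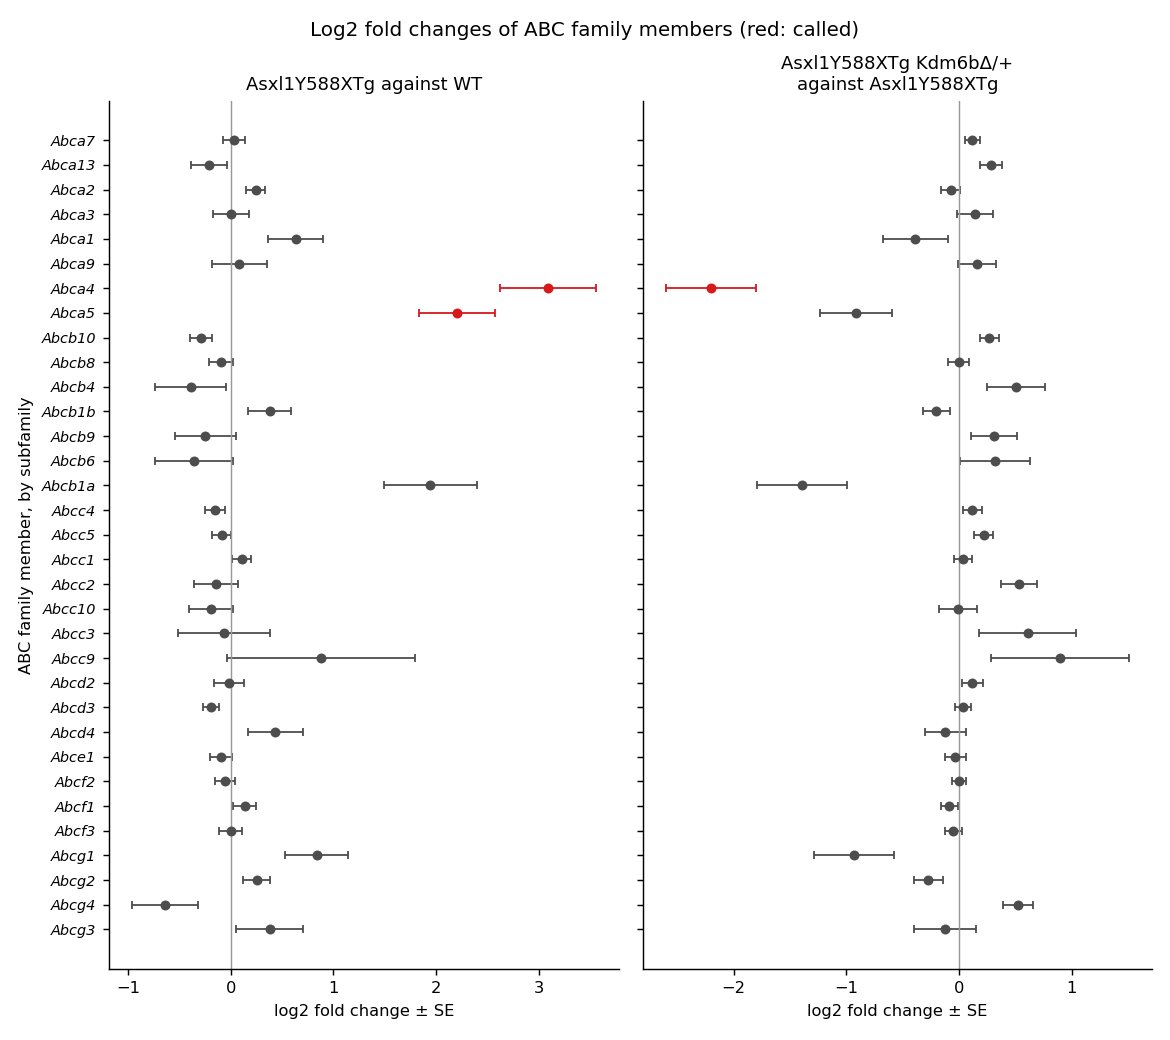
Log2 fold changes (± SE, from edgeR) of 33 of the 35 members tested, for Asxl1Y588XTg against WT on the left and for Asxl1Y588XTg Kdm6bΔ/+ against Asxl1Y588XTg on the right, with called members in red. Abca4 (3.09 and -2.20) and Abca5 (2.20 on the left) are called, and most members lie near 0 in both panels, which share the Asxl1Y588XTg libraries.

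Abca4 fell in Asxl1Y588XTg Kdm6bΔ/+ against Asxl1Y588XTg. In the double mutant it stood at 56.8, 26.0 and 59.8 normalized read counts, below all 3 Asxl1Y588XTg libraries (158, 332 and 178), and 2 of the double mutant libraries were above the highest WT library at 39.6. It was the only member called (log2 fold change -2.20, SE 0.40, adjusted p = 0.0495 with edgeR), so 0 of the 35 rose and 1 fell, when 0.145% of all genes were called higher and 1.59% lower. The fall was also called with DESeq2, but not with RLE scaling (adjusted p = 0.0508), with a mean count of at least 50 (adjusted p = 0.0522) or with a replicate block (adjusted p = 0.2), where its log2 fold change was -2.19, -2.20 and -2.15. DESeq2 called 0 members higher. At an unadjusted p under 0.05, 5 members were higher (Abca13, Abcb10, Abcc2, Abcc5 and Abcg4) and 4 lower (Abca4, Abca5, Abcb1a and Abcg1), against 5.64% and 9.81% of all genes. The call sat at the threshold: it was lost without Asxl1Y588XTg replicate 3 or any 1 of the double mutant libraries (adjusted p up to 0.158), although the log2 fold change stayed between -2.39 and -1.80. This comparison shares the Asxl1Y588XTg libraries with the one against WT, so the values of the 2 comparisons are not independent of each other.

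Abca5 and Abcb1a, also low in abundance, had negative log2 fold changes that did not pass the test. Abca5 was at 41.3, 17.0 and 36.1, below the Asxl1Y588XTg range of 55.3 to 65.4 (log2 fold change -0.91, SE 0.32, adjusted p = 0.196 with edgeR). Abcb1a was at 11.8, 13.0 and 28.9, also below all Asxl1Y588XTg libraries (log2 fold change -1.39, SE 0.40, adjusted p = 0.113 with edgeR), and reached an adjusted p of 0.0433 once double mutant replicate 3 was left out. Abcg1, at 611 to 725 in the double mutant, had a log2 fold change of -0.93 (SE 0.36, adjusted p = 0.323 with edgeR), which became -0.50 without Asxl1Y588XTg replicate 1. Abcb1b was lower without overlap too, by a small margin (220, 201 and 223 against 273, 250 and 226).

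In the other direction, Abcg4, a half-transporter related to Abcg1, was at 334, 254 and 262 in the double mutant and at 193, 209 and 198 in Asxl1Y588XTg. These libraries did not overlap, but WT spanned both (388, 151 and 395), and the difference was not called (log2 fold change 0.52, SE 0.13, adjusted p = 0.0779 with edgeR). Of the conjugate exporters, Abcc2 was at 155, 204 and 172 against 111, 126 and 134 (log2 fold change 0.53, SE 0.16, adjusted p = 0.13 with edgeR), and Abcc5, which exports cyclic nucleotides, at 1828, 1673 and 1838 against 1366, 1633 and 1638 (log2 fold change 0.22, SE 0.08, adjusted p = 0.231). For 5 members all double mutant libraries were above (Abca7, Abca13, Abcc2, Abcc5 and Abcg4) and for 5 all were below (Abca4, Abca5, Abcb1a, Abcb1b and Abcg1), against 7.11% and 14.1% of all genes. Among Abcc members 6 of 7 log2 fold changes were positive (median 0.22), among Abcb 5 of 8 (median 0.20), among Abca 4 of 8 (median 0.02), among Abcd 2 of 4 (median -0.00), among Abce 0 of 1 (-0.03), among Abcf 0 of 3 (median -0.05) and among Abcg 1 of 4 (median -0.20), where 49.2% of all genes tested were positive. The median over the 35 members was 0.04 and over all genes -0.00.

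The Kdm6b deletion alone had no called member, with 0 higher and 0 lower, and few genes were called overall (0.0758% higher and 0.019% lower). DESeq2 called 0 members too. Without adjustment, 0 members were higher and 1 lower at p under 0.05, against 1.3% and 2.19% of all genes, and likewise the libraries did not overlap for 0 members above WT and 1 below, against 4.13% and 4.8%. That member was Abcb6, a porphyrin transporter, with 32.0, 36.0 and 40.6 normalized read counts in WT and 3.77, 26.8 and 11.4 in Kdm6bΔ/+ (log2 fold change -1.34, SE 0.59, not called by edgeR). Its 3 Kdm6bΔ/+ libraries were below WT and widely spread, and its log2 fold change ran from -2.21 to -0.91 with 1 library left out. Its double mutant values were 39.8, 27.0 and 37.1, within or near the WT range. Its count is uncertain, since 50% of its 50-base stretches occur in the same-strand gene Gm29253. Abca4, Abca5 and Abcb1a did not pass the test here, with log2 fold changes of -0.30 for Abca4, 0.32 for Abca5 and -0.49 for Abcb1a and SEs of 0.54, 0.59 and 0.77.

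The transgene on the Kdm6bΔ/+ background, Asxl1Y588XTg Kdm6bΔ/+ against Kdm6bΔ/+, also gave no called member (0 higher and 0 lower, where 0.0569% and 0.0379% of all genes were called), and DESeq2 called 0. Those at an unadjusted p under 0.05 were 6 higher (Abca1, Abca4, Abca5, Abcb6, Abcc3 and Abcc5) and 3 lower (Abcd3, Abcf2 and Abcf3), against 6.54% and 5.67% of all genes. The libraries did not overlap for 4 above (Abca1, Abca4, Abcb6 and Abcc5) and for the same 3 below, against 9.32% and 9.57%. Abca4 had the lowest p here, with 21.4, 17.8 and 23.9 in Kdm6bΔ/+ and 56.8, 26.0 and 59.8 in the double mutant (log2 fold change 1.18, SE 0.36, unadjusted p = 0.00603, adjusted p = 0.243 with edgeR). The groups did not overlap, though 23.9 and 26.0 were close. Over the 35 members 23 log2 fold changes were positive and 12 negative (65.7% positive, median 0.06), against 50.3% positive over all genes. All 8 Abca members tested had a positive log2 fold change (median 0.35) and all 3 Abcf members a negative one (median -0.17). Abcf2 and Abcf3, which act in translation, were below Kdm6bΔ/+ in every library (log2 fold changes -0.17 and -0.19, with SEs of 0.07 and 0.08).

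The double mutant against WT had 0 members higher and 0 lower as well (0.145% and 0.0695% of all genes), and 0 with DESeq2. It had 1 higher (Abca5) and 0 lower at an unadjusted p under 0.05, against 3.73% and 3.06%, and libraries without overlap for 3 above (Abca1, Abca5 and Abcc1) and 1 below (Abcd3), against 6.68% and 6.87%. Abca5 lay above WT in every library, at 41.3, 17.0 and 36.1 against 10.1, 13.1 and 16.0, with 17.0 and 16.0 nearly touching (log2 fold change 1.28, SE 0.49, unadjusted p = 0.0243, adjusted p = 0.661 with edgeR). Abca4 had a log2 fold change of 0.88 (SE 0.51) and Abcb1a of 0.56 (SE 0.59), and both overlapped WT. The interaction, which asks whether the effect of the transgene differed between the Kdm6b backgrounds, called 0 members higher and 0 lower (0% and 0.0126% of all genes). Its estimate for Abca4 was -1.91 (SE 0.63, unadjusted p = 0.00863, adjusted p = 0.52 with edgeR), for Abca5 -1.26 (SE 0.57) and for Abcb1a -0.91 (SE 0.76), and with DESeq2 it called 0 members. At an unadjusted p under 0.05, 2 interaction terms were higher (Abcb6 and Abcc5) and 3 lower (Abca4, Abca5 and Abcg1), against 2.15% and 4.72% of all genes.

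HSC markers were highest in the same 3 libraries as Abca4, Abca5 and Abcb1a. Of 12 HSC genes, some of which the study itself showed from these libraries, 10 were called higher in Asxl1Y588XTg than in WT and 7 lower in the double mutant than in Asxl1Y588XTg, where 1.58% and 1.59% of all genes were. Their summed normalized read counts were 1945, 1936 and 2558 in WT, 1743, 2082 and 1950 in Kdm6bΔ/+, 6251, 6101 and 5008 in Asxl1Y588XTg and 2603, 2046 and 2997 in the double mutant, with Hlf the most abundant of them. The sums of 8 megakaryocyte genes led by Vwf were 2776, 1478 and 2711 in WT and 5937, 12172 and 4543 in Asxl1Y588XTg, and the library with the highest sum was also the one with the highest Abca4 (replicate 2). Of the 7 megakaryocyte genes tested, edgeR called 0 against WT (3 higher and 0 lower at an unadjusted p under 0.05, with 7.3% and 2.05% of all genes) and 0 in the double mutant against Asxl1Y588XTg (0 in either direction, with 5.64% and 9.81%). Against Kdm6bΔ/+ the double mutant had 1 of the 7 called higher (Itga2b, log2 fold change 0.68) and all 7 higher at an unadjusted p under 0.05, along with 6 of the 12 HSC genes, where 6.54% of all genes were. Against WT it had 1 called higher (Ppbp, log2 fold change 2.49), 4 of 7 megakaryocyte genes and 3 of 12 HSC genes higher at that level, where 3.73% of all genes were. Abca4 had the lowest p of the family in the first of these comparisons and Abca5 in the second. Of 8 endothelial and stromal genes, 4 were higher and 0 lower at an unadjusted p under 0.05 in the double mutant against WT. All 8 were positive there (median 1.37), with 3.73% and 3.06% of all genes at that level. In Asxl1Y588XTg against WT 2 were higher and 0 lower (median 0.96), and in the double mutant against Asxl1Y588XTg 1 was higher and 2 lower. In the double mutant against Kdm6bΔ/+ 1 was higher, and edgeR called 0 of the 8 throughout. In bulk cells a larger share of a cell type and more RNA per cell cannot be told apart, and the part of these cells in the Abca4, Abca5 and Abcb1a values was not tested.

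**Figure D4:**
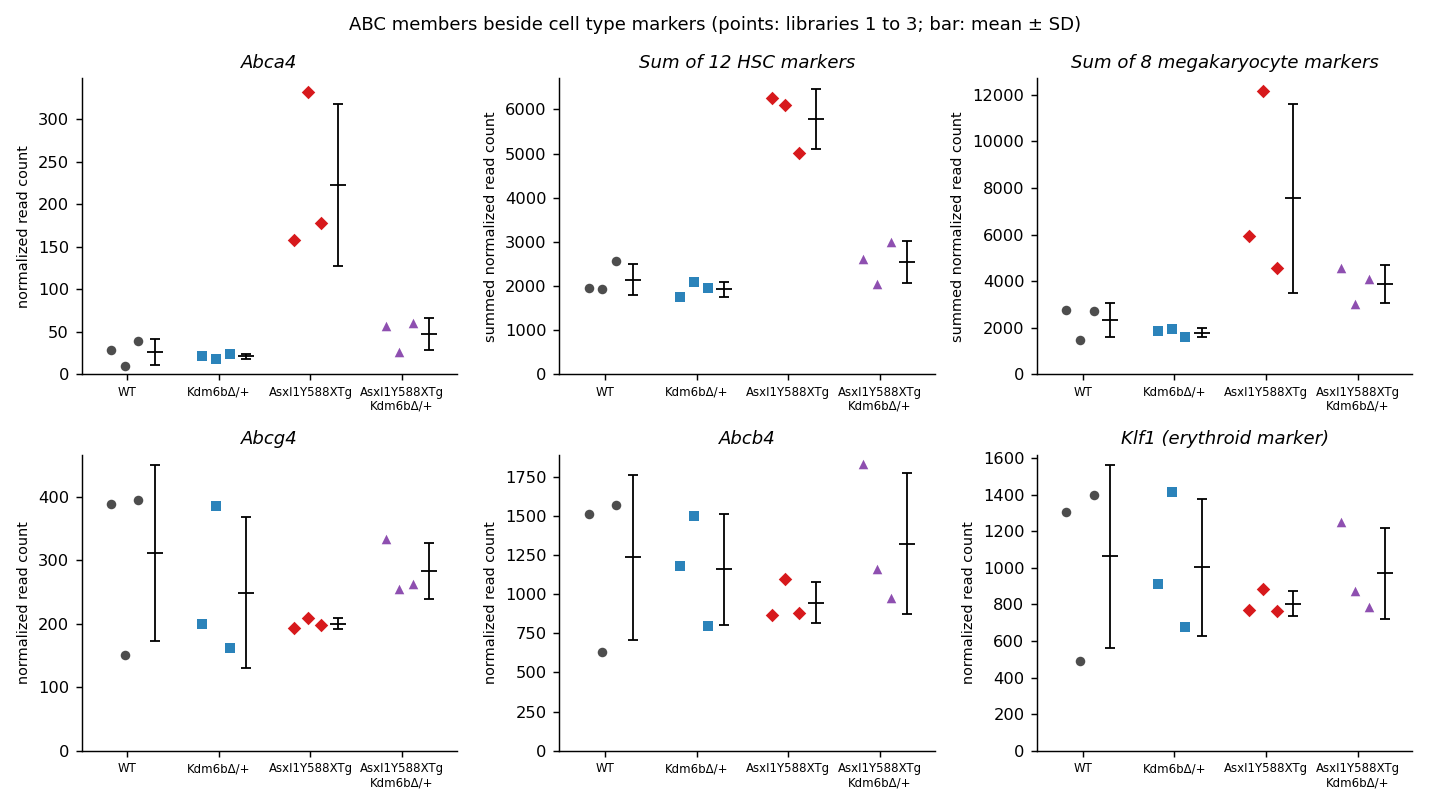
Normalized read counts of Abca4, Abcg4, Abcb4 and Klf1 and the summed counts of 12 HSC and 8 megakaryocyte markers, by genotype, with 1 point per library and a bar for mean ± SD (n = 3). The HSC sum and Abca4 are highest in the 3 Asxl1Y588XTg libraries, while Abcg4, Abcb4 and Klf1 are high in WT replicates 1 and 3, Kdm6bΔ/+ replicate 2 and double mutant replicate 1.

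Other members varied between mice of the same genotype. Over the 29 members with a mean of at least 100 normalized read counts, the median coefficient of variation between libraries of a genotype was 13.8%, compared with 9.49% over all 9893 such genes, and it was highest for Abcg4 at 33.7%. Abcb4, the phosphatidylcholine floppase that shares ancestry with P-glycoprotein, was at 1513, 630 and 1572 in WT, 1182, 1503 and 794 in Kdm6bΔ/+, 865, 1099 and 878 in Asxl1Y588XTg and 1833, 1163 and 979 in the double mutant. Abcg4 was at 388, 151 and 395, at 200, 385 and 162, at 193, 209 and 198 and at 334, 254 and 262 in the same order. Both were highest in the same 4 libraries, namely WT replicates 1 and 3, Kdm6bΔ/+ replicate 2 and double mutant replicate 1. The 4 were taken as the highest for Abcb4, so its own match was set in advance. Of the other members tested only Abcg4 had these 4 on top, as did 1.26% of all genes tested.

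The early erythroid genes Klf1, Epor, Car1, Rhag and Ermap had the same 4 libraries on top. Klf1 was between 1251 and 1417 normalized read counts in these 4 and between 488 and 914 in the other 8. Hemoglobin genes did not share this order, and Hbb-bs was highest in Asxl1Y588XTg replicate 3 at 6150. Among genes of heme and iron-sulfur cluster synthesis and transport, Alad, Cpox, Glrx5, Ppox, Slc11a2, Slc25a38 and Urod also peaked in these libraries. These genes were looked up after the order of the libraries was seen. The part of erythroid progenitors in the Abcb4 and Abcg4 values was not tested. With WT replicate 2 left out, Abcb4 and Abcg4 were called lower in Asxl1Y588XTg than in WT. Their log2 fold changes were then -0.71 and -0.97 (adjusted p = 0.0166 and 0.013 with edgeR), against -0.39 and -0.64 with all libraries. Lower calls rose over all genes too, with 42 of 15825 in that fit against 5 with all libraries.

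The mitochondrial Abcb members are grouped with heme and iron-sulfur metabolism. Abcb10 was at 2373, 1794 and 2236 in WT and 1660, 1877 and 1699 in Asxl1Y588XTg, which overlapped (log2 fold change -0.29, SE 0.11, unadjusted p = 0.0222, adjusted p = 0.364 with edgeR). Part of its count is uncertain, because 8.27% of its 50-base stretches lie in the antisense gene Gm45890 and the strand setting of the counting was not given in the sources used here. Abcb8, another mitochondrial member, had a log2 fold change of -0.10 (SE 0.12).

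Genes of the pathways that these transporters serve were not called in the 2 main comparisons. Of 19 cholesterol genes, 24 heme and iron-sulfur genes, 11 peroxisomal genes, 14 genes of xenobiotic response and glutathione tested, 14 of ribosome recycling and translation control and 10 of peptide loading, edgeR called 0 in Asxl1Y588XTg against WT and 0 in the double mutant against Asxl1Y588XTg. At an unadjusted p under 0.05, 4 of these 92 genes were higher and 2 lower in the first comparison, and 6 higher and 9 lower in the second. The shares over all genes were 7.3% and 2.05% in the first and 5.64% and 9.81% in the second. The median log2 fold changes of these lists in Asxl1Y588XTg against WT were 0.02, -0.16, -0.09, -0.09, -0.02 and 0.10. The only pathway gene called in any comparison was Alas2, the erythroid enzyme that starts heme synthesis, which fell in the double mutant against WT (82.6, 141 and 117 against 341, 286 and 332, log2 fold change -1.49, SE 0.20, adjusted p = 0.0174 with edgeR). It moved with hemoglobin genes. Of the 12 erythroid genes, 3 (Alas2, Hba-a2 and Hbb-bt) were called lower in the same comparison, where 0.0695% of all genes were. Hba-a1 and Hbb-bs were not called. Genotype and sex cannot be told apart in this comparison. Tap1 was at 1948, 2227 and 1905 in WT and 3378, 2568 and 2051 in Asxl1Y588XTg, highest again in replicate 1 (log2 fold change 0.39, SE 0.16, adjusted p = 0.493 with edgeR). Tap2 was at 1483, 1608 and 1310 in WT and 1723, 1440 and 1340 in Asxl1Y588XTg, which overlapped (log2 fold change 0.03, SE 0.11). The few reads of Cftr gave 0, 9.83 and 11.8 normalized read counts in WT, 31.4, 6.94 and 14.5 in Kdm6bΔ/+, 24.1, 30.2 and 16.2 in Asxl1Y588XTg and 6.64 to 13.4 in the double mutant. Its Asxl1Y588XTg libraries lay above those of WT and of the double mutant, while the highest of all was in Kdm6bΔ/+. The log2 fold changes of Cftr were 1.71 (SE 0.88, adjusted p = 0.649 with edgeR) against WT, -1.18 (SE 0.41, adjusted p = 0.191) in the double mutant against Asxl1Y588XTg and -2.48 (SE 1.07, adjusted p = 0.697) in the interaction, and none was called. Of the 10 peptide loading genes 5 were lower at an unadjusted p under 0.05 in the double mutant against Asxl1Y588XTg (Calr, Erap1, Pdia3, Psmb8 and Psmb10), with log2 fold changes between -0.16 and -0.23, where 9.81% of all genes were lower at that level, and 0 of the 10 were called.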

How the data were processed

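The deposited values are raw counts, whole numbers of reads per gene, 1 column per mouse. Per the labels and the study's methods, the authors trimmed 50-base single reads with Trimmomatic, aligned them to mm10 with STAR and counted them with HTSeq. The annotation and the strand setting were not given in the sources used here, and the labels and the methods name different library kits and instruments. Column names abbreviate the genes (AS1, KD) and were matched to sample titles by genotype and number.

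From these counts, genes were kept with filterByExpr over the 4 genotypes, scaled by TMM and tested with edgeR (4.0.16, in R 4.3.3), by the robust quasi-likelihood test in pairwise fits of the 2 genotypes compared, with p-values adjusted by Benjamini-Hochberg over the whole table. Pairwise fits used 6 libraries, and the interaction all 12. A gene was called at an adjusted p under 0.05 and a fold over 1.5. Intervals of fold changes are 95% t intervals. Libraries held 14451522 to 23482563 counts, so members with few reads have wide errors. Exon lengths and shared 50-base stretches came from GENCODE vM21 and start windows from RefSeq (GRCm38.p6).

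The named genes were Abcg2, Abcb1a, Abcb1b, every member called, the member of highest level per kb in each subfamily, the 3 members of lowest p in each comparison and the pathway genes called. Others were named after their values were seen, and some genes, members among them, are not reported here. The members and lists were chosen with earlier results of these data known. Alternatives were DESeq2 (1.42.0), RLE scaling, 1 fit over all genotypes, no filter, a mean count of at least 50, a replicate block, a term for Y-linked transcripts and leaving out each library. The fits were tested on simulated data.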

Additional observations from a re-analysis of the deposited data

How the results depend on the processing

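Against WT, 2 members were called higher in Asxl1Y588XTg. The count was 4 with DESeq2 (Abca4, Abca5, Abcb1a and Abcg1), 4 with no filter on low counts (Abca1, Abca4, Abca5 and Abcb1a), 1 with a mean count of at least 50 (Abca4), 0 with the replicate block, and 1 to 2 with 1 library left out. The count lower was 0, but 1 with no filter (Abcg4) and 0 to 2 with 1 library left out. The 2 came without WT replicate 2, where 42 of 15825 genes were called lower. In the double mutant against Asxl1Y588XTg, 1 member was called lower, against 0 with RLE scaling, 2 with no filter (Abca4 and Abcb1a), 0 with a mean count of at least 50, 0 with the replicate block and 0 to 1 with 1 library left out. For the interaction, 1 member higher (Abcb4) and 2 lower (Abca4 and Abcg1) were called with no filter. Over all genes that fit called 79 higher and 179 lower of 32704, compared with 0 and 2 of 15825 in the main fit. The causes were not tested. Abca5 is too low to enter the fits with a mean count of at least 50.

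Among all genes, 250 were called higher and 5 lower in Asxl1Y588XTg against WT, compared with 455 and 17 with DESeq2, 430 and 16 in 1 fit over all genotypes, 591 and 28 with no filter and 145 and 4 with a mean count of at least 50. In the double mutant against Asxl1Y588XTg 23 were higher and 252 lower, compared with 55 and 391, 12 and 150, 145 and 667 and 15 and 134 in the same order, and with 5 and 43 after a term for Y-linked transcripts.

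Some differences near 0 changed sign. With the term for Y-linked transcripts the log2 fold changes of the double mutant against WT were -0.050 for Abcb1b and -0.0034 for Abca2. No library of these 2 genotypes informs that term within the comparison, so both values assume a shift estimated in the other 2 genotypes. With 1 library left out, Abcg2 ran from -0.19 to 0.046 in Kdm6bΔ/+ against WT, from -0.13 to 0.15 in the double mutant against Kdm6bΔ/+ and from -0.18 to 0.10 in the double mutant against WT, and Abcb1b from -0.40 to 0.10 in Kdm6bΔ/+ against WT and from -0.32 to 0.21 in the interaction.

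The replicate numbers did not pair the libraries: deviations from the group means correlated with a median r of -0.03 for the 18 pairs of equal number (-0.11 to 0.07) and 0.01 for the 36 others, and 2 of 12 libraries correlated best with their own number. The replicate block took the calls among all genes from 250 to 96 higher in Asxl1Y588XTg against WT and from 252 to 58 lower in the double mutant against Asxl1Y588XTg.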
